A study of Rattus norvegicus with 16 samples.

Results

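Fos, Jun, Junb, Egr1, Atf3 and Myc encode transcription factors of the immediate early and stress response. They were taken as 6 of the 23918 genes in the count files by their Ensembl identifiers: ENSRNOG00000008015 (Fos), ENSRNOG00000026293 (Jun), ENSRNOG00000042838 (Junb), ENSRNOG00000019422 (Egr1), ENSRNOG00000003745 (Atf3) and ENSRNOG00000004500 (Myc). The rule that picks them holds identifiers and no threshold on a measured value, though the genes were proposed with earlier results of these data known. The files hold identifiers without symbols, and the symbols were given with the selection. All 6 genes passed the filter on low counts, which left 14175 genes for testing.

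Heart RNA came from adult male Wistar rats of 240 to 260 g. The control group had 4 rats with no agent. The D55 group had 6 rats given 1 dose of 55 mg/kg streptozotocin, and the D100 group had 6 rats given 100 mg/kg, in both cases injected into a tail vein under halothane. Streptozotocin is a glucose analogue that kills pancreatic beta cells, the source of insulin, and so causes diabetes. Blood glucose above 13 mmol/L was checked 24 h later in the injected rats, and all hearts were drained of blood and collected after 4 days. Whether the controls received halothane or a vehicle injection is not stated in the labels, so the agent and the injection procedure cannot be told apart. Each library came from its own rat. Libraries are named by group and by the number or letter in their labels.

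Immediate early genes are transcribed within minutes of a stimulus from factors already present in the cell, and their messenger RNAs are usually short-lived. Fos and Jun family proteins pair to form the AP-1 transcription factor, Egr1 is a zinc-finger factor, Atf3 is a stress-induced member of the ATF/CREB family, and Myc is a growth regulator. In the heart these genes are known to respond to stretch, to ischaemia and to hormones that raise cardiac load.

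Total estimated counts were 26.2 to 48.3 M in controls, 18.5 to 48.4 M in D55 and 4.69 to 25.6 M in D100, where D100 F was the shallowest. The 10 most abundant genes were a fixed set, those with the highest mean share of counts over the 16 libraries. They took 43.3% to 59.4% of the counts in controls and 53.4% to 69.0% in D100. D55 B and D55 E stood apart with 30.1% and 30.4%, against 42.8% to 54.7% in the other 4 D55 libraries. Results that rest on D55 B and E or on D100 F are given with and without them where at least 6 libraries remain. Levels are in CPM, the count of a gene relative to a library total scaled by TMM, and since CPM does not correct for transcript length, levels were compared between libraries and not between genes. The cardiac, other-cell-type and other response gene lists set by symbol could not be matched to the identifiers, so the tissue label and the cell makeup were not checked here. In whole-heart RNA, fewer cells of a type and less RNA per cell cannot be told apart.

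Junb and Jun, the AP-1 subunits of the Jun family, were the genes of the set called between groups, and both were lower in D100 than in D55. Junb was 7.56-fold lower and Jun 1.62-fold lower in the fit. Fos, Egr1, Atf3 and Myc passed the threshold of edgeR in no comparison. The Junb and Jun differences rested on D55 B and D55 E, and without those libraries neither passed. Neither Junb nor Jun passed it against controls in either dose group.

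**Figure D1:**
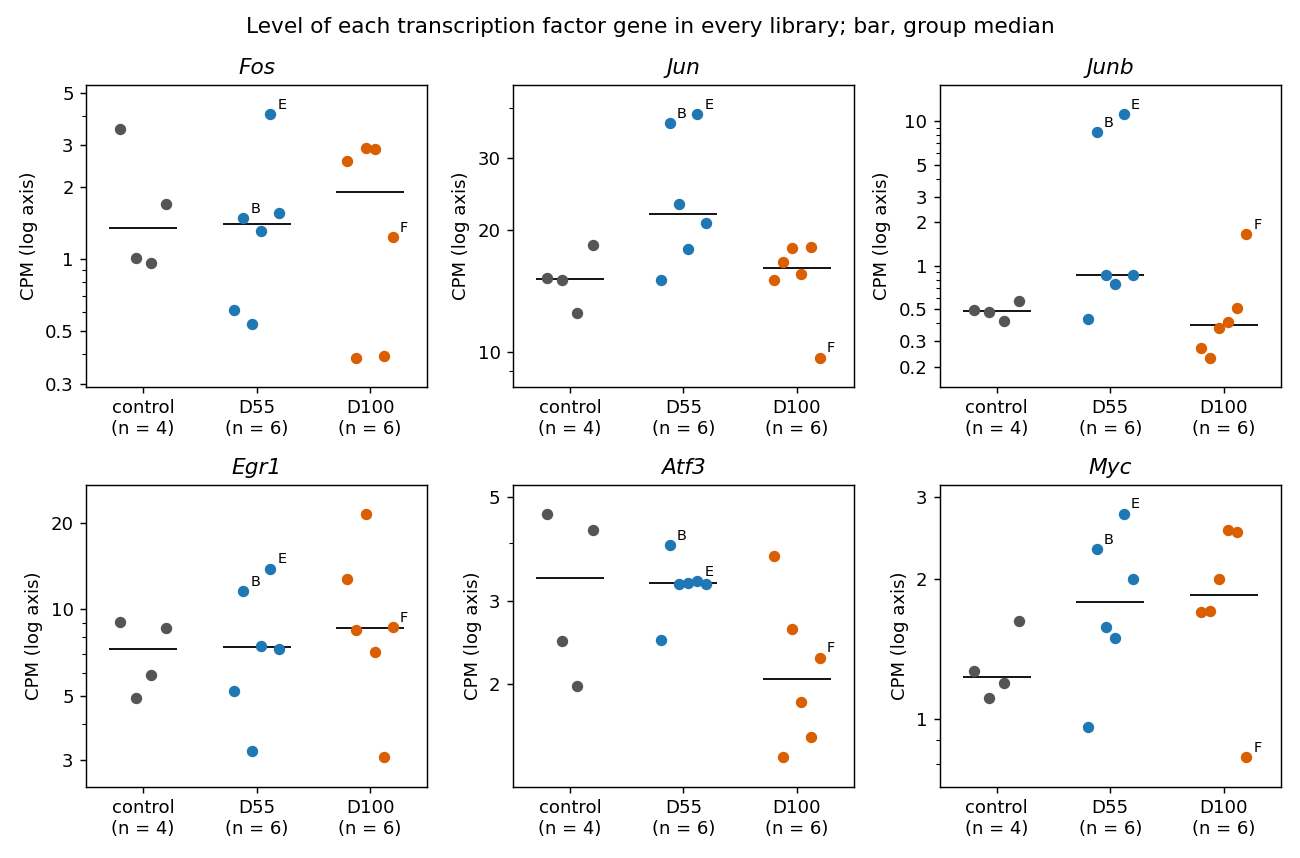
Level of each gene in every library, in CPM on a log axis, for control (n = 4), D55 (n = 6) and D100 (n = 6) hearts. Points are libraries, bars are group medians, and the letters mark D55 B, D55 E and D100 F. Junb reached 8.35 and 11.2 CPM in D55 B and E and was at most 1.65 CPM elsewhere, while the ranges of all 3 groups overlapped for each gene.

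Junb encodes a Jun family protein that pairs with Fos proteins and can oppose Jun at some promoters. Junb was at 0.492, 0.483, 0.414 and 0.567 CPM in controls 1 to 4. In D55 A to F it was at 0.426, 8.35, 0.868, 0.745, 11.2 and 0.865 CPM. In D100 A to F it was at 0.272, 0.232, 0.374, 0.407, 0.512 and 1.65 CPM. D55 B and E were therefore high, D100 F was the next highest library, and the other 13 lay below 1 CPM with overlap between all 3 groups. The D100 F value rests on 8 counts and has a 95% exact Poisson interval of 0.713 to 3.25 CPM, whereas D55 B and E hold 607 and 701 counts. The lowest value, in D100 B, rests on 3 counts, the floor taken for detection. These intervals cover counting error only.

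The group means for Junb were 0.489 ± 0.0627 CPM in controls (SD, n = 4), 3.74 ± 4.75 in D55 (SD, n = 6) and 0.575 ± 0.537 in D100 (SD, n = 6). D100 against D55 differed by -2.92 on the log2 scale (SE 0.82, edgeR adjusted p = 0.0200). The D55 mean fell to 0.726 ± 0.208 CPM (SD, n = 4) once D55 B and E were left out, and the difference was then -0.54 (SE 0.47, adjusted p = 0.464). The call also ended without D55 B alone (-2.48, adjusted p = 0.0562), without D55 E alone (-2.17, adjusted p = 0.0600) and without D100 B (-2.76, adjusted p = 0.0514). Limma-voom with quality weights gave a smaller difference, -1.09, that missed the threshold (adjusted p = 0.0531). A fit that also held the share taken by the top 10 genes turned the sign (0.40, adjusted p = 0.829). That share was 30.1% to 54.7% in D55 and 53.4% to 69.0% in D100. With so little overlap, share and dose cannot be told apart in this fit. D55 against control gave 2.93 (SE 0.90, adjusted p = 0.554), and DESeq2 called this difference (2.97, adjusted p = 0.0425). It was 0.55 (SE 0.48) without D55 B and E, again short of the threshold. D100 against control gave 0.01 (SE 0.98, adjusted p = 0.995). Leaving out D100 F gave -3.35 against D55 (adjusted p = 0.0156) and -0.40 against control (adjusted p = 0.764). With the top 10 share in the fit, D100 against control was 1.495 (adjusted p = 0.111) and D55 against control 1.09 (adjusted p = 0.452).

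RefSeq promoter windows were found by symbol for 2 of the 6 genes, Junb and Egr1, and both are shown. They run from 250 bases before the transcription start to 50 after it on GRCr8. The Junb window lies on the + strand at chr19:40080876-40081175. Capitals mark the TGACG core of the cAMP response element, the CCAAT box and TATAA, in that order.
Junb: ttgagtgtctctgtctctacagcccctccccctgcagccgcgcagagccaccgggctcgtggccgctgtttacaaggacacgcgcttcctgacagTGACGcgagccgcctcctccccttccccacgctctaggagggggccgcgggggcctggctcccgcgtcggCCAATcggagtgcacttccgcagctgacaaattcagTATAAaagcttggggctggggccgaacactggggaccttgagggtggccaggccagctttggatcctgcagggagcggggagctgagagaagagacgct
The TGACG core begins 155 bases before the start, CCAAT 85 bases and TATAA 49 bases before it. On both strands, 21.2% of all 33469 windows hold TGACG, 37.5% hold CCAAT and 26.2% hold TATAA, so these letters are common. The full response element TGACGTCA, the AP-1 site TGANTCA, the GC box GGGCGG, the E-box motif CACGTG and the CArG box, bound by serum response factor, had no match in the Junb window.

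Jun encodes the AP-1 subunit that can also bind DNA as a pair of its own. Jun was at 15.2, 15.1, 12.5 and 18.4 CPM in controls 1 to 4. In D55 A to F it was at 15.1, 36.6, 23.1, 17.9, 38.5 and 20.8 CPM. In D100 A to F it was at 15.1, 16.7, 18.1, 15.6, 18.1 and 9.70 CPM. D55 B and E were again the highest libraries, D55 C and F came next, and D100 F was the lowest of all 16. The means were 15.3 ± 2.43 CPM in controls (SD, n = 4), 25.3 ± 9.86 in D55 (SD, n = 6) and 15.5 ± 3.12 in D100 (SD, n = 6).

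Jun was lower in D100 than in D55, by -0.70 on the log2 scale (SE 0.23, edgeR adjusted p = 0.0303). The D55 mean was 19.2 ± 3.48 CPM (SD, n = 4) once D55 B and E were left out, and the difference was -0.30 (SE 0.18, adjusted p = 0.310). The call also ended without D55 B alone (-0.55, adjusted p = 0.0861) or D55 E alone (-0.53, adjusted p = 0.0861), and when any of D100 A, B, C and D was left out (adjusted p = 0.0507 to 0.0626). Limma-voom with quality weights gave -0.22 (adjusted p = 0.179). Holding the share of the top 10 genes in the fit brought the difference to -0.08 (adjusted p = 0.924). As for Junb, share and dose cannot be told apart in that fit. D55 against control gave 0.73 (SE 0.26, adjusted p = 0.554), which was 0.33 without D55 B and E. D100 against control gave 0.03 (SE 0.25, adjusted p = 0.949). Leaving out D100 F gave -0.61 against D55 (adjusted p = 0.0383) and 0.14 against control (adjusted p = 0.705). With the top 10 share in the fit, D100 against control was 0.40 (adjusted p = 0.274).

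Fos encodes the AP-1 subunit that binds DNA only as a pair with a Jun protein. Fos was at 3.52, 1.01, 0.965 and 1.70 CPM in controls 1 to 4. In D55 A to F it was at 0.613, 1.49, 0.537, 1.31, 4.06 and 1.56 CPM. In D100 A to F it was at 2.58, 0.386, 2.93, 2.90, 0.394 and 1.24 CPM. Controls ran from 0.965 to 3.52 CPM and D55 from 0.537 to 4.06 CPM. D100 split into A, C and D above 2.5 CPM and B and E below 0.4 CPM with F between them. D55 A, D55 C, D100 B and D100 E lay below every control. The Fos values of D100 B and D100 F rest on 5 and 6 counts. Means were 1.80 ± 1.19 CPM in controls (SD, n = 4), 1.59 ± 1.28 in D55 (SD, n = 6) and 1.74 ± 1.21 in D100 (SD, n = 6).

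The spread within groups was larger than any difference in Fos between them. The log2 fold change was -0.17 for D55 against control (SE 0.64, edgeR adjusted p = 0.931), -0.04 for D100 against control (SE 0.65, adjusted p = 0.974) and 0.12 for D100 against D55 (SE 0.59, adjusted p = 0.876). The D55 mean was 1.01 ± 0.507 CPM (SD, n = 4) without D55 B and E. The D55 difference from control was then -0.84 (SE 0.64) and the D100 difference from D55 0.80 (SE 0.61), neither past the threshold.

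Egr1 encodes a zinc-finger factor whose gene is a classical target of serum response factor. Egr1 was at 9.03, 4.92, 5.93 and 8.63 CPM in controls 1 to 4. In D55 A to F it was at 5.22, 11.6, 3.22, 7.49, 13.9 and 7.29 CPM. In D100 A to F it was at 12.7, 8.50, 21.4, 7.12, 3.07 and 8.67 CPM. D100 held both the highest library, C, and the lowest, E, so the groups overlapped throughout. Means were 7.13 ± 2.01 CPM in controls (SD, n = 4), 8.11 ± 3.95 in D55 (SD, n = 6) and 10.2 ± 6.29 in D100 (SD, n = 6). The log2 fold change was 0.19 for D55 against control (SE 0.44, edgeR adjusted p = 0.885), 0.52 for D100 against control (SE 0.45, adjusted p = 0.474) and 0.33 for D100 against D55 (SE 0.40, adjusted p = 0.501). The first turned to -0.30 (SE 0.44) without D55 B and E, and the last became 0.82 (SE 0.41, adjusted p = 0.244).

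The Egr1 promoter window is the other one found, and it holds the motif of serum response factor, the known regulator of Egr1. It lies on the + strand at chr18:26736828-26737127 (GRCr8, RefSeq). Capitals mark, in order, the CCAAT box, the TGACG core read on the other strand (CGTCA), the CArG boxes CCATATTAGG and CCATATATGG, and another CGTCA.
Egr1: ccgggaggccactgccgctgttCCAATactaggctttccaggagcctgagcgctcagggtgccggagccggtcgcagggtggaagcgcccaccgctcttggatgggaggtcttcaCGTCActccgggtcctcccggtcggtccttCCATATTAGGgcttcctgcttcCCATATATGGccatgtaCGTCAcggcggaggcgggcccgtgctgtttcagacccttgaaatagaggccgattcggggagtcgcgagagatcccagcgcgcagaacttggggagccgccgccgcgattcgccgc
The CArG boxes begin 105 and 83 bases before the start, the TGACG cores 135 and 66 bases before it, and CCAAT 228 bases before it. A CArG box, on either strand, is held by 1.64% of the 33469 windows of this length. The full response element, the AP-1 site, the GC box, the E-box motif and TATAA had no match in the Egr1 window. The full element was held by 1.83% of all windows, the AP-1 site by 7.33%, the GC box by 33.1% and the E-box motif by 6.42%. The matches describe letters in the windows, and binding was not measured.

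Atf3 encodes a stress-induced factor of the ATF/CREB family that can pair with Jun proteins and often represses transcription. Atf3 was at 4.61, 2.46, 1.98 and 4.25 CPM in controls 1 to 4. The D55 libraries ran from 2.48 to 3.95 CPM with a median of 3.27, and 4 of them lay between 3.26 and 3.31 CPM. The D100 libraries ran from 1.39 to 3.74 CPM with a median of 2.05. D55 was the tightest group and lay inside the control range, while 3 D100 libraries (B, D and E) lay below every control and every D55 library. Atf3 means were 3.32 ± 1.30 CPM in controls (SD, n = 4), 3.26 ± 0.466 in D55 (SD, n = 6) and 2.23 ± 0.868 in D100 (SD, n = 6).

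The log2 fold change of Atf3 was -0.58 for D100 against control (SE 0.30, edgeR adjusted p = 0.255), -0.55 for D100 against D55 (SE 0.28, adjusted p = 0.114) and -0.03 for D55 against control (SE 0.30, adjusted p = 0.973). Limma-voom with quality weights called the first (-0.65, adjusted p = 0.0327), in a fit that called 67.7% of all tested genes. The Atf3 estimates were whole numbers, within 0.01, in 2 of 16 libraries, while those of the other genes of the set were whole in 16 of 16. Part of the Atf3 reads were thus divided between similar sequences, and its level is less certain.

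Myc encodes a growth regulator that acts as a pair with Max and raises genes of ribosome production and metabolism. Myc was at 1.27, 1.11, 1.20 and 1.62 CPM in controls 1 to 4. The D55 libraries ran from 0.959 (A) to 2.75 CPM (E) with a median of 1.79. The D100 libraries ran from 0.826 (F) to 2.54 CPM (D) with a median of 1.85. The lowest D100 library rests on 4 counts, and the other 5 D100 libraries, from 1.70 CPM up, lay above all 4 controls. Means were 1.30 ± 0.224 CPM in controls (SD, n = 4), 1.85 ± 0.641 in D55 (SD, n = 6) and 1.88 ± 0.638 in D100 (SD, n = 6). The log2 fold change was 0.51 for D55 against control (SE 0.32, edgeR adjusted p = 0.581), 0.56 for D100 against control (SE 0.33, adjusted p = 0.305) and 0.05 for D100 against D55 (SE 0.29, adjusted p = 0.895). Limma-voom with quality weights called Myc higher in D100 than in control (0.68, adjusted p = 0.0110), in the fit that called 67.7% of all genes. With D55 B and E left out, the D55 difference from control was 0.21 (SE 0.33). Without D100 F, the D100 difference from control was 0.70 (edgeR adjusted p = 0.150), short of the threshold.

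**Figure D2:**
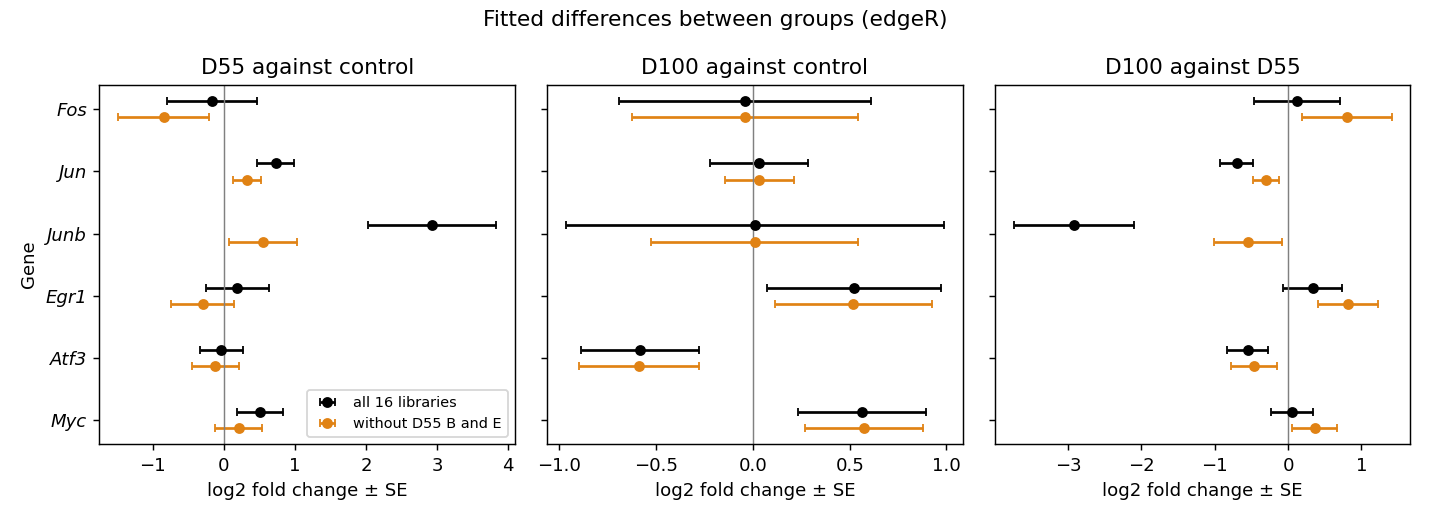
Log2 fold change ± SE of each gene from edgeR for the 3 comparisons, with all 16 libraries (black) and without D55 B and E (orange); the horizontal scales differ between panels. Junb moved from -2.92 to -0.54 and Jun from -0.70 to -0.30 in D100 against D55, while the D100 against control values barely moved.

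In D55 against control, 0 of the 6 genes were called by edgeR, in a comparison where 0.0635% of all tested genes were (0.0564% higher and 0.00705% lower). At an unadjusted p under 0.05 there were 2 (Jun and Junb), against 8.97% of all genes, while DESeq2 called 1 (0.621% of all genes) and limma-voom 0 (3.68% of all genes). In D100 against control, 0 of 6 were called, against 4.38% of all genes (1.92% higher and 2.46% lower), with 0 at an unadjusted p under 0.05 against 22.8% of all genes. DESeq2 called 0 there, against 10.1% of all genes, and limma-voom 2 of 6, fewer than its 67.7% of all genes. In D100 against D55, 2 of 6 were called, both lower, where 21.8% of all genes were called lower, 13.7% higher and 35.6% in either direction. At an unadjusted p under 0.05 there were also 2, against 51.4% of all genes. DESeq2 called the same 2 (46.6% of all genes) and limma-voom 0 (49.9% of all genes). The share of the set called, 2 of 6, was thus close to the background. None of the genes had non-overlapping groups in any comparison, against 2.55%, 7.57% and 4.2% of all tested genes in the same order. Median log2 fold changes of the set were 0.35, 0.02 and -0.25, beside 0.03, -0.03 and -0.03 over all tested genes. Both dose groups were compared with the same 4 controls, so those comparisons share samples.

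With D55 B and E left out, 0 of 6 genes were called in each comparison, where the shares of all genes called were 0.101%, 10.8% and 0.888% in the same order. The medians of the set were then 0.04, 0.02 and 0.03 in that order. With only the D55 and D100 libraries in the fit, Jun had an adjusted p of 0.0521.

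The genes differed in how much they varied between rats of a group. The biological coefficient of variation from edgeR, which removes counting noise, was 83.9% for Junb and 68.2% for Fos, the 97.2 and 93.0 percentiles of all tested genes. Egr1 had 47.9% (percentile 77.3). Atf3 and Myc, each with 32.8%, lay at the median of all genes, 32.6%, and Jun, with 28.5%, lay below it (percentile 38.2). These percentiles were taken against genes of all levels, and genes of like level were not compared apart. By mean CPM, Fos, Junb and Myc lay at only the 20.3, 20.8 and 20.6 percentiles of all tested genes. With D55 B and E left out, Junb dropped to 32.4% (percentile 64.1) and Jun to 19.8% (percentile 23.5), while Fos remained at 62.0% (percentile 95.6) and Egr1 at 43.3% (percentile 83.2). The wide spread of Junb thus rested on those libraries, and that of Fos and Egr1 was present without them. From the lowest to the highest of the 16 libraries, Junb spanned 48.1-fold, Fos 10.5-fold, Egr1 6.98-fold, Jun 3.97-fold, Myc 3.34-fold and Atf3 3.31-fold.

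Fos and Egr1 rose and fell together from heart to heart. The same library was highest for both in each group: control 1, D55 E and D100 C. D55 C was the lowest D55 library for both, and D100 E was the lowest for Egr1 and next to lowest for Fos. Both D100 B and D100 D went against this. D100 B had the lowest Fos (0.386 CPM) beside an Egr1 level of 8.50 CPM, and D100 D had the next to highest Fos of its group (2.90 CPM) beside the next to lowest Egr1 (7.12 CPM). Over 16 libraries Pearson's r of log2 CPM was 0.73 (permutation p = 0.00131, adjusted over 15 pairs 0.0124) and Spearman's rho was 0.73 (permutation p = 0.00206, adjusted 0.0192). Leaving out the 2 libraries farthest from the median of Fos gave r = 0.79.

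Within groups the Fos and Egr1 relation kept its sign. In the 6 D55 libraries r was 0.91 (exact permutation p = 0.0222, adjusted 0.0833) and rho 0.83 (exact permutation p = 0.0583). In the 6 D100 libraries r was 0.67 (exact permutation p = 0.154) and rho 0.54 (exact permutation p = 0.297). The 4 controls are too few for a correlation. Deviations from the group means over 16 libraries gave r = 0.77 (permutation p = 0.00121, adjusted 0.00908). Leaving out D55 B and E gave r = 0.71 (permutation p = 0.00377), rho = 0.69 (permutation p = 0.00738), and the adjusted p of r, 0.0566, missed the threshold. Leaving out D100 F as well gave r = 0.71 (permutation p = 0.00516, adjusted 0.0774). Among 14174 other tested genes, Egr1 ranked 2 by r with Fos, and Fos ranked 3 with Egr1. These ranks were 7 and 130 without D55 B and E.

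**Figure D3:**
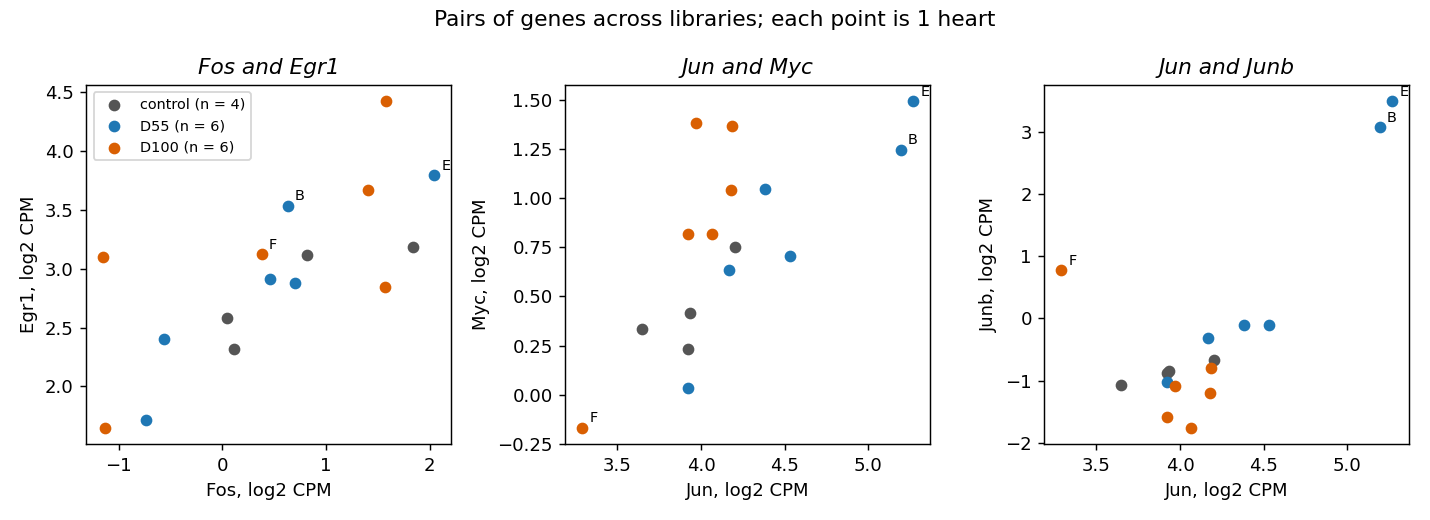
Log2 CPM of Fos against Egr1, Jun against Myc and Jun against Junb, with each point 1 heart coloured by group (control n = 4, D55 n = 6, D100 n = 6) and D55 B, D55 E and D100 F lettered. Fos and Egr1 spread along a common line with r = 0.73, while in the Jun and Junb panel D55 B and E lie apart at the top right and D100 F lies apart at low Jun.

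Jun and Myc shared several of their highest and lowest libraries. D55 E was the highest library of all 16 for both and D100 F the lowest, D55 A was the lowest D55 library for both, and control 4 was the highest control for both. D55 B and E lie apart from the rest in Jun, so the relation is given over the other 14 libraries. There r was 0.63 (permutation p = 0.0150, adjusted over 15 pairs 0.112) and rho was 0.63 (permutation p = 0.0181, adjusted 0.136), short of the threshold after adjustment. Leaving out the 2 libraries then farthest from the median of Jun gave r = 0.56 (permutation p = 0.0599). Deviations from the group means over the 14 libraries gave r = 0.85 (permutation p = 0.00351, adjusted 0.0504). In the 6 D100 libraries r was 0.89 (exact permutation p = 0.0458, adjusted 0.434) and rho 0.66 (exact permutation p = 0.175). The 4 remaining D55 libraries, and the 5 D100 libraries other than D100 F, are too few for a value. D100 F, with 4 counts for Myc and 47 for Jun, is the low end of this relation, and leaving it out as well gave r = 0.44 (permutation p = 0.135) and rho = 0.54 (permutation p = 0.0605) over 13 libraries. The relation of Jun and Myc outside D55 B and E therefore rests in part on D100 F. With log2 total counts, Jun and Myc had r of 0.95 and 0.94 in the 6 D100 libraries. Over the 14 libraries these values were 0.58 and 0.36. The part of depth in the relation of Jun and Myc was not tested. Over those 14 libraries Jun ranked 215 of 14174 genes by r with Myc, and Myc ranked 645 with Jun.

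Jun and Junb were both highest in D55 B and E, and their relation over the other libraries turned on D100 F, which had the lowest Jun and the highest Junb of those 14. The 6 D55 libraries ranked alike in both genes (rho = 1, exact permutation p = 0.00278, adjusted over 15 pairs 0.0417). Over the 14 libraries r was -0.13 (permutation p = 0.654) and rho was 0.30 (permutation p = 0.303). Leaving out D100 F as well gave r = 0.64 (permutation p = 0.0201, adjusted 0.150) and rho = 0.62 (permutation p = 0.0272, adjusted 0.193) over 13 libraries. With D55 B and E kept and D100 F left out, r was 0.93 (adjusted 0.00105), a value that spans the gap between D55 B and E and the rest. In the 6 D100 libraries r was -0.82 (exact permutation p = 0.136) and rho -0.14 (exact permutation p = 0.803). Over all 16 libraries Jun ranked 2932 of 14174 genes by r with Junb, and Junb ranked 1017 with Jun. These ranks were 7486 and 9883 without D55 B and E, so many other genes were more like each of them.

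Fos and Atf3 had r = 0.57 over 16 libraries (permutation p = 0.0221, adjusted 0.0828) and rho = 0.61 (permutation p = 0.0148, adjusted 0.0740). Without the 2 libraries farthest from the median of Fos, r was 0.26, so the relation rests on those libraries. Controls 1 and 4 were the highest controls for Fos, Egr1 and Atf3 alike. Deviations from group means of Fos and Atf3 gave r = 0.68 (permutation p = 0.00721, adjusted 0.0361), and 0.74 without D55 B and E (permutation p = 0.0101, adjusted 0.0504).

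**Figure D4:**
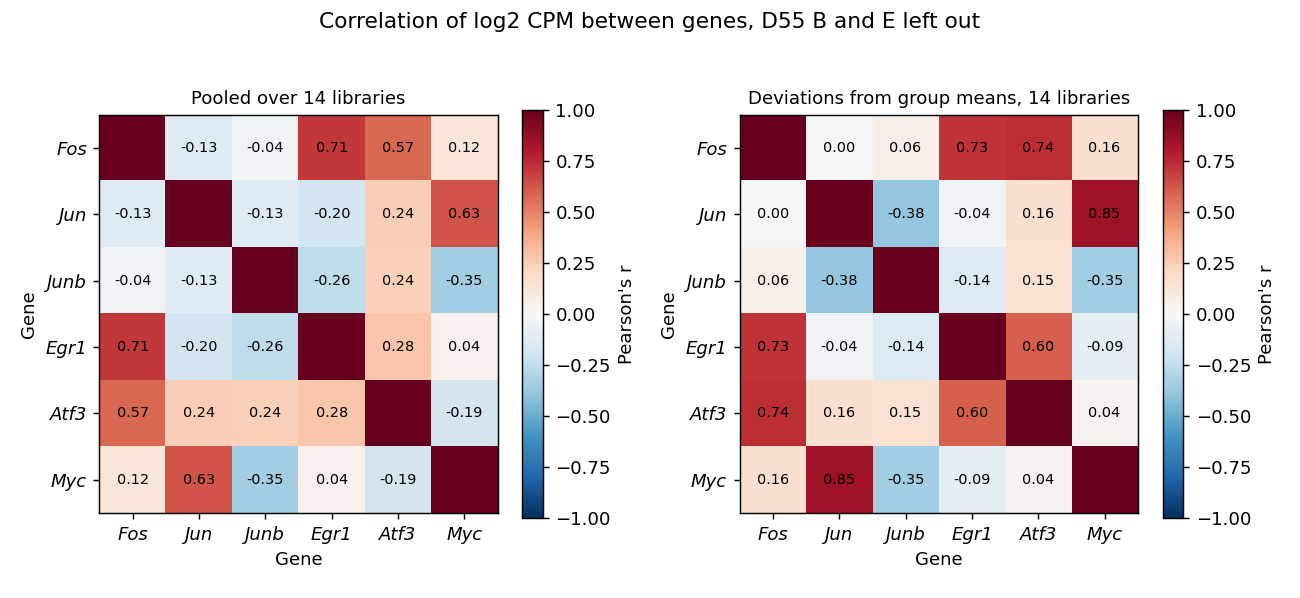
Pearson's r of log2 CPM for the 15 pairs of genes without D55 B and E (14 libraries), pooled on the left and as deviations from group means on the right, on a colour scale from -1 to 1. Fos with Egr1 (0.71 and 0.73) and Jun with Myc (0.63 and 0.85) have high values in both panels, and Fos with Atf3 has 0.57 and 0.74.

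The signs of the 15 pairs depended on D55 B and E. Over all 16 libraries, 14 of the 15 were positive with a median r of 0.32, and all 15 were positive as deviations from group means and within the 6 D55 libraries. Over the 14 libraries other than D55 B and E, they had r from -0.35 to 0.71 with a median of 0.04, 8 positive and 7 negative, and 0 passed after adjustment (3 at an unadjusted p under 0.05). As descriptions of likeness, the non-member most like Fos over 16 libraries, among 8652 genes with a mean of at least 5 CPM, was ENSRNOG00000003977.5 (r = 0.66). The one most like Jun was ENSRNOG00000024410.4 (r = 0.95). Both values include D55 B and E, which lie apart in Jun, and were not taken without them. Symbols for these identifiers were not used here.

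D55 B and E had the lowest share of counts in the fixed set of top 10 genes and the highest Junb and Jun. The relation of each gene with that share was therefore taken over the other libraries. No gene passed there after adjustment. Over the other 14 libraries Junb had r = -0.54 with the share (permutation p = 0.0465, adjusted over the 6 genes 0.140) and rho = -0.66 (permutation p = 0.0119, adjusted 0.0711), and r was -0.32 without the 2 libraries then farthest from the median share. Jun had r = -0.15 (permutation p = 0.610) and rho = -0.14 (permutation p = 0.623). Egr1 had the opposite sign, with r = 0.53 (permutation p = 0.0498, adjusted 0.140) and rho = 0.45 (permutation p = 0.110). Within the 6 D100 libraries Junb had r = -0.84 (exact permutation p = 0.0194, adjusted 0.117) and rho = -0.94 (exact permutation p = 0.0167, adjusted 0.1). The Junb values of those libraries rest on 3 to 13 counts, and they had r = -0.88 with log2 total counts. Fos and Myc had r of 0.06 and 0.40 with the share over the 14 libraries. The part of the share in the levels of Junb and Jun was not tested beyond the covariate values given above.

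**Figure D5:**
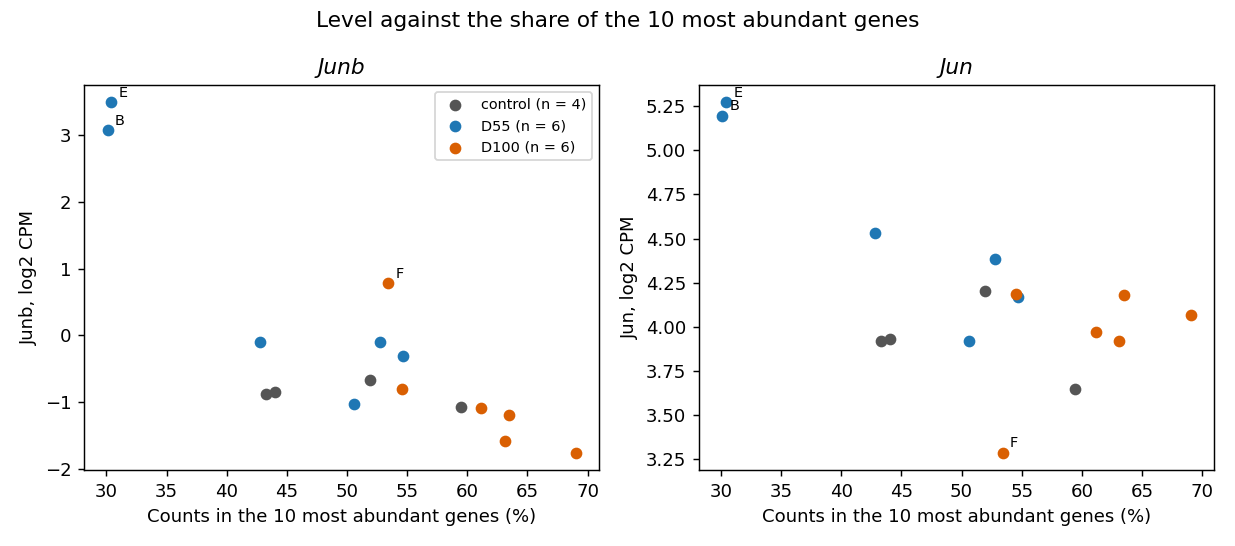
Log2 CPM of Junb (left) and Jun (right) against the percentage of counts in the 10 most abundant genes, with each point 1 heart coloured by group (control n = 4, D55 n = 6, D100 n = 6). D55 B and E lie apart at 30.1% and 30.4% with the highest levels of both genes, and the remaining libraries span 42.8% to 69.0%.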

How the data were processed

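Whole-heart RNA of 16 rats was sequenced from stranded, poly(A)-selected libraries (TruSeq Stranded mRNA, 400 ng total RNA, Illumina NextSeq), per the labels' protocols. The authors deposited 1 estimated count for each gene and library, from kallisto 0.43.1 and the Rnor_6.0 build according to the submitters' processing notes. The program divides reads shared by similar transcripts, so an estimate need not be whole. Annotation release and strand setting: not given in the sources used here.

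Estimates were rounded. In R 4.3.3, edgeR 4.0.16 kept 14175 of 23918 genes (filterByExpr), scaled totals by TMM and fitted a quasi-likelihood model over the 3 groups and 16 libraries. P-values were adjusted by Benjamini-Hochberg over all genes tested, with a threshold of 0.05. The text names all 6 genes in every comparison. Correlations used log2 CPM with a prior count of 2, with 100000 permutations, two-sided, or exact ones within 6 libraries. Scripts were tested on simulated data. Alternatives were DESeq2 1.42.0, limma-voom with quality weights (limma 3.58.1), no scaling, no filter, DESeq2 scaling, the 2 groups alone, a covariate for the share of the 10 most abundant genes, a replicate block, and leaving out libraries. Rank correlations within groups and without D55 B and E, correlations also without D100 F, and some settings for the share, were added after seeing the data.

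Depth set the precision: 3 counts correspond to 0.0413 to 0.619 CPM across libraries. No pair of libraries in a group was a duplicate, with a lowest chi-square per degree of freedom of 12.0. The members and lists were chosen with earlier results of these data known. The RefSeq gene table (GRCr8, 47357 rows) holds 0 Ensembl identifiers, so lists of other response genes and of cell type markers set by symbol were not tested.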

Additional observations from a re-analysis of the deposited data

Results flagged for a closer look

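Of 18 sets of values (6 genes in 3 groups), 3 held a library whose gap to its neighbour was a larger part of the group's range than Dixon's 95% limit, which is 0.625 for 6 libraries. For normally distributed values, chance gives such a gap in about 1 in 20 groups. Whether CPM values are so distributed was not checked. Fos in D55 E was at 4.06 CPM, with the next library at 1.56 CPM and a gap of 0.711 of the range. Jun in D100 F was at 9.70 CPM, with the next lowest at 15.1 CPM and a gap of 0.641. Junb in D100 F was at 1.65 CPM, with the next at 0.512 CPM and a gap of 0.803. D100 F is the shallowest library (4.69 M counts), and its Junb value rests on 8 counts. The Junb and Jun values of D55 B and E are not in this list, since each has the other as a near neighbour.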

How the results depend on the processing

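In D55 against control the number of genes called, 9 with all libraries, was 5 without scaling, 88 with DESeq2, 522 with limma-voom, 1 with the 2 groups alone, 53 with the covariate for the top 10 share, 14 without D55 B and E, and 0 to 15 when each library was left out in turn. In D100 against control it was 621, and 1172 without scaling, 409 without the filter, 1438 with DESeq2, 9594 with limma-voom, 1493 without D55 B and E, 1407 with the covariate and 180 to 1086 with a library left out. In D100 against D55 it was 5041, and 3018 with the 2 groups alone, 123 without D55 B and E, 41 with the covariate and 1172 to 6745 with a library left out. Of the 6 genes described, DESeq2 called 1 in D55 against control and limma-voom 2 in D100 against control. In D100 against D55, where 2 were called, limma-voom called 0, the 2 groups alone 1, the covariate 0, leaving out D55 B and E 0, and leaving out single libraries 0 to 2. Over 25 alternatives the Jun call was kept in 14 and the Junb call in 18.

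The letters of D55 and D100 libraries are not stated to mark a shared animal or day. Deviations of same-letter libraries correlated above 0.1 in 3 of 6 letters, and 1 library pair correlated best with its own letter. A replicate block on these letters, with D55 and D100 alone, called 0 genes and 0 of the 6, with Jun at -0.65 (adjusted p = 0.0604) and Junb at -1.92 (adjusted p = 0.118).

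The signs of small differences moved. Without scaling, which shifts the median log2 fold change of all genes to 0.20, -0.48 and -0.65 in the order of the comparisons above, D55 against control gave Fos 0.035 and Atf3 0.13. D100 against control then gave Jun -0.46, Junb -0.36 and Egr1 -0.0050, and D100 against D55 gave Fos -0.64, Egr1 -0.43 and Myc -0.64. Atf3 was called there, at -1.21 beside that median of -0.65. Limma-voom gave Egr1 -0.19 in D55 against control and Junb -0.39 in D100 against control, where the 2 groups alone gave Junb -0.0018. Without D55 B and E, Egr1 was -0.30 in D55 against control. The covariate gave Fos 0.56 in D100 against control and Junb 0.40 in D100 against D55. With single libraries left out, D55 against control ran from -0.70 to 0.38 for Fos, -0.21 to 0.16 for Atf3 and -0.030 to 0.37 for Egr1. D100 against control ran from -0.26 to 0.51 for Fos, -0.055 to 0.14 for Jun and -0.40 to 0.18 for Junb. D100 against D55 ran from -0.091 to 0.68 for Fos, -0.080 to 0.21 for Myc and -0.028 to 0.57 for Egr1. The cause was not tested.

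Of 15 pairs of genes, 3 passed after adjustment with all libraries, 9 without scaling, 0 without D55 B and E (also by rho, by deviations from group means and with D100 F left out too), 1 without the 2 libraries farthest from the median, 1 with both left out, 0 in D100 alone (also by rho) and 1 by rho in D55 alone. The correlation of Jun and Junb, 0.72 with all libraries, was -0.13 without D55 B and E, which are also the 2 farthest from the median, -0.38 by deviations from group means without them, and in D100 alone -0.82, or -0.14 by rho. It was 0.97 in D55 alone (rho 1) and 0.93 without D100 F, both past the threshold, and 0.64 without D55 B, D55 E and D100 F. Over all libraries rho was 0.53 (adjusted permutation p = 0.117), and deviations from group means gave r = 0.56 (adjusted permutation p = 0.299). Residuals after a fit on the top 10 share gave r = 0.41 (adjusted permutation p = 0.280). Such residuals gave 0.76 for Fos and Egr1 and 0.85 for Jun and Myc, both past the threshold. The correlation of Jun and Myc, 0.71 with all libraries, was 0.62 without D100 F (adjusted p = 0.0571) and 0.44 without all 3. With the top 10 share, 2 of the 6 passed over all libraries, 0 without D55 B and E, 0 in D55 alone and 0 in D100 alone. Depth limits Fos, Junb and Myc most, with lowest counts of 5, 3 and 4.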
